A study of Homo sapiens with 18 samples.

Results

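SW48 cells, an established line from a human colon adenocarcinoma, were depleted of CHD4 with siRNA (siCHD4) either on its own or after siRNA against DNMT1 (siDNMT1), and RNA sequencing was used to ask whether the 2 depletions acted together. The interaction was measured in 12 of the 18 libraries of the study, 3 in each of 4 groups: control siRNA, siCHD4, control siRNA after siDNMT1, and siCHD4 after siDNMT1 (the double knockdown). The remaining 6 libraries received the same control siRNA or siCHD4 with 50 nM decitabine, a cytidine analogue that traps DNA methyltransferases, and were used only for comparison. All 12 libraries came from the same cell line with no stated allele or transgene, and group and library number were read from the library titles.

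Without siDNMT1 the siRNA was applied on days 1, 3 and 6, and the cells were harvested for RNA on day 8. With siDNMT1, given on days 1, 3 and 5, the control siRNA or siCHD4 followed on days 7 and 8, with harvest on day 11, so the 2 siCHD4 effects also rest on different schedules and siDNMT1 and schedule cannot be told apart. Decitabine was given on days 1, 2 and 3, the siRNA on days 1 and 2, with harvest on day 5. Whether the libraries within a group are separate cultures is not stated, and the p-values then speak only of the variation among these libraries, part or all of which may be technical.

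CHD4 is the ATPase of the NuRD complex, which slides nucleosomes and removes acetyl groups from histones, and it takes part in keeping genes silent. DNMT1 copies the methylation of CG dinucleotides to the new DNA strand at each round of replication, so its loss lets methylation drain away over cell divisions. Germline genes such as the MAGE family are a textbook example of genes that somatic cells hold silent through promoter methylation, and some genes active in normal colon are silenced the same way in colon cancer.

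The interaction of a gene is its siCHD4 effect after siDNMT1 minus its siCHD4 effect alone, each a difference of mean log2(FPKM + 1). FPKM is the authors' expression value, a fragment count corrected for transcript length and library size. A value of 0 means that the depletions multiply FPKM + 1 (on the log2 scale they add). A positive value means that the double knockdown is higher than that, and a negative one that it is lower. Where levels lie well below 1 FPKM, a value of 0 is close to adding in FPKM, not to multiplying FPKM. A positive value of such a gene therefore need not exceed the product of the single fold changes. A gene was called where limma's test gave a Benjamini-Hochberg adjusted p below 0.05 over the 12652 genes that reached 1 FPKM in 3 or more of these libraries.

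The promoters of 4 called genes are shown as examples, with CG dinucleotides, the sites that DNMT1 maintains, in capitals. Each runs 5′ to 3′ over 300 bases around a listed start of the gene, from RefSeq on GRCh38.p14. The first listed window of each gene was taken, which need not be its outermost or most used start. TKTL1 (chrX:154295545-154295844, plus strand) and MAGEB2 (chrX:30215313-30215612, plus strand) are X-linked germline genes and HCLS1 (chr3:121660854-121661153, minus strand) is a gene of blood cells, and all 3 were higher in the double knockdown than the single effects give. ELF5 (chr11:34511675-34511974, minus strand) is an epithelial transcription factor that was lower.
TKTL1: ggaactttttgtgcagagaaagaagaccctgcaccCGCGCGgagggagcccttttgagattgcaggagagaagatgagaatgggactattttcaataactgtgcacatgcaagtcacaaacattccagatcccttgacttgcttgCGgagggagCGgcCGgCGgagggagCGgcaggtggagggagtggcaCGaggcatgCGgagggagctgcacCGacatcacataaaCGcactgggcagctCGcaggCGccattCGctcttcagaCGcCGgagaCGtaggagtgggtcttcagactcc
MAGEB2: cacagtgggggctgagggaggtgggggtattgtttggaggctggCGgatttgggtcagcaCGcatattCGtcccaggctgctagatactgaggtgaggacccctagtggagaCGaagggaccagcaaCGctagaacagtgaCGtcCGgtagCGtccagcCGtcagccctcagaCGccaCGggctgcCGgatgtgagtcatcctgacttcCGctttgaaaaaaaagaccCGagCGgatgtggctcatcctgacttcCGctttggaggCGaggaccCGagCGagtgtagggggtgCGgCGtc
HCLS1: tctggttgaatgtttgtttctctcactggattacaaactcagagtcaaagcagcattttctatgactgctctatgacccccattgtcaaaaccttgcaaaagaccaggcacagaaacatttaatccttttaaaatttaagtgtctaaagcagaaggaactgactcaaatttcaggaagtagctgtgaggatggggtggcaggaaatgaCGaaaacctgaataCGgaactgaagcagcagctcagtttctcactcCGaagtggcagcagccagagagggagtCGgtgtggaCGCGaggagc
ELF5: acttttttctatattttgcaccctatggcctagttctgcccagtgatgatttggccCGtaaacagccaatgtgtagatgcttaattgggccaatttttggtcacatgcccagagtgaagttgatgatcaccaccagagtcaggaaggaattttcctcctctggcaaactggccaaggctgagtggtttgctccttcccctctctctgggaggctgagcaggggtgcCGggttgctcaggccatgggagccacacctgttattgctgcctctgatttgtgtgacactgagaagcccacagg
The motif searched was CG, which reads the same on both strands. It occurred 18 times in the TKTL1 window, 21 times in that of MAGEB2, 6 times in that of HCLS1 and 2 times in that of ELF5. Among all 35116 windows of the same kind in the table the median was 14, and 96% held at least 1 CG. Methylation was not measured in these libraries, so the counts describe sequence only.

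Both siRNAs lowered their targets, and neither target gave a called interaction. CHD4 was listed at 59.1, 61.2 and 68.2 FPKM in the control libraries, 39.0, 31.8 and 23.2 with siCHD4 alone, 63.7, 67.1 and 73.9 with siDNMT1 alone and 29.0, 27.1 and 29.1 with both. The double knockdown libraries lay within the range of siCHD4 alone, and CHD4 had an interaction of -0.23 ± 0.21 (SE, adjusted p = 0.570), which was -0.42 (adjusted p = 0.0409) without siCHD4 library 2. DNMT1 was listed at 45.0, 43.7 and 45.4 FPKM in the control libraries, 50.0, 41.8 and 35.7 with siCHD4 alone, 11.2, 12.2 and 13.5 with siDNMT1 alone and 12.6, 11.0 and 12.8 with both, with an interaction of 0.06 ± 0.16 (SE, adjusted p = 0.851). DNMT1 was low in all 6 siDNMT1 libraries and the groups with and without siCHD4 overlapped. Of 15 tested genes of the NuRD list limma called none (2 had an unadjusted p below 0.05), and the median interaction was -0.08, or 0.04 under quantile normalization. The DNA methylation list had none called of 15 (3 at that unadjusted p), with a median of 0.12. Without siCHD4 library 2 the NuRD list had 1 higher and 3 lower and the DNA methylation list 2 higher and 1 lower. In that fit 27% of all tested genes were called. For HELLS, a remodeller needed for methylation, the FPKM values were 58.9, 66.3 and 49.8 in the controls, 48.8, 45.3 and 51.1 after siCHD4, 61.9, 63.3 and 59.9 after siDNMT1 and 33.5, 36.8 and 35.6 after both, with an interaction of -0.53 ± 0.14 (SE, adjusted p = 0.0595).

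Library 2 of siCHD4, and to a smaller degree library 2 of the controls, stood apart. The siCHD4 library numbered 2 held 15.7% of all squared deviations from the group means, where each of 12 libraries would hold 8.33% in an even split, and control library 2 held 11.3%. The other 10 held between 5.95% and 9.09%. The log2 values of siCHD4 library 2 correlated with those of siCHD4 libraries 0 and 1 at 0.956 and 0.952, whereas libraries 0 and 1 correlated at 0.980 with each other. Libraries 0 and 1 of siCHD4 also had a smaller value per fragment (log2 -0.65 and -0.58 against control library 0, a sign of greater depth) than siCHD4 library 2 (0.03). Control library 2 correlated with siCHD4 libraries 0 and 1 at 0.971 and 0.970, and with control libraries 0 and 1 at 0.967 and 0.965. Both libraries numbered 2 enter the effect of siCHD4 alone, and through it the interaction of every gene. Without siCHD4 library 2 the median residual SD fell from 0.156 to 0.122, the calls below rose from 360 higher and 140 lower to 1467 and 1950, and all 500 genes called with it were called again in the same direction. The share of tested genes called thus rose from 3.95% to 27%. Each list count given below or above for the fit without that library is to be read against 27%. The counts that follow include that library unless it is named as left out. Of 9 colon epithelium markers 8 had a mean of at least 1 FPKM, but their sum differed by group without overlap: 2015 to 2127 FPKM in the controls, 1197 to 1365 with siCHD4, 1799.8 to 1879 with siDNMT1 and 1055 to 1097 with both. Most of this sum was keratin: KRT18 had group means of 884, 422, 828 and 274 FPKM in that order, and KRT8 of 805, 427, 681 and 339.8 FPKM. Other members did not share this fall. From the controls to the double knockdown KRT19 went from 16.2 to 46.8 FPKM and CDH1 from 74.1 to 108, whereas EPCAM went from 258 to 227. After siDNMT1, siCHD4 called 5 of the 8 higher and 2 lower, against 25.2% and 25.8% of all tested genes. None of the 8 gave a called interaction, and the part of these shifts in the results below was not tested.

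In the interaction, 360 of 12652 genes were higher than the 2 effects predict (2.85%) and 140 were lower (1.11%), and 2602 genes had an unadjusted p below 0.05. Under quantile normalization the split was 407 higher and 344 lower. The median interaction over all tested genes was -0.01. siCHD4 alone called 1300 genes higher (10.3%) and 1437 lower (11.4%), and siCHD4 after siDNMT1 called 3186 higher (25.2%) and 3259 lower (25.8%). A larger number of calls in one background is not a difference between them, and only the interaction tests that difference.

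The 2 directions differed in size and in level. The genes that were higher had a median interaction of 1.06 and 202 of them reached at least 1 on the log2 scale, whereas the genes that were lower had a median of -0.66 and 22 reached that size. The genes that were higher were nearly silent to begin with: 248 of 360 had a control mean under 0.5 FPKM, against 625 of all 12652 tested, and their median level over the 12 libraries was 1.37 FPKM. The genes that were lower were well expressed, with a median level of 22.6 FPKM, and 16 of 140 had a control mean under 0.5 FPKM. Of the higher genes 179 were under 1 FPKM in all 9 libraries outside the double knockdown, so they passed the filter through that group alone, and the count leans on the filter in that direction. Among all tested genes 261 entered this way. A gene near 0 outside the double knockdown can hardly be called lower. The difference in level between the directions is thus partly set by this floor and by the filter.

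By the pattern of the siCHD4 effects, most interactions were responses gained after siDNMT1. For 379 genes siCHD4 alone made no called change and siCHD4 after siDNMT1 did (293 higher, 86 lower). For 67 genes a called siCHD4 effect was larger after siDNMT1 in the same direction (41 higher, 26 lower), and for 11 it was smaller (3 higher, 8 lower). For 25 genes a siCHD4 effect called alone was not called after siDNMT1 (11 higher, 14 lower). For 18 genes both effects were called in opposite directions (12 higher, 6 lower).

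**Figure D1:**
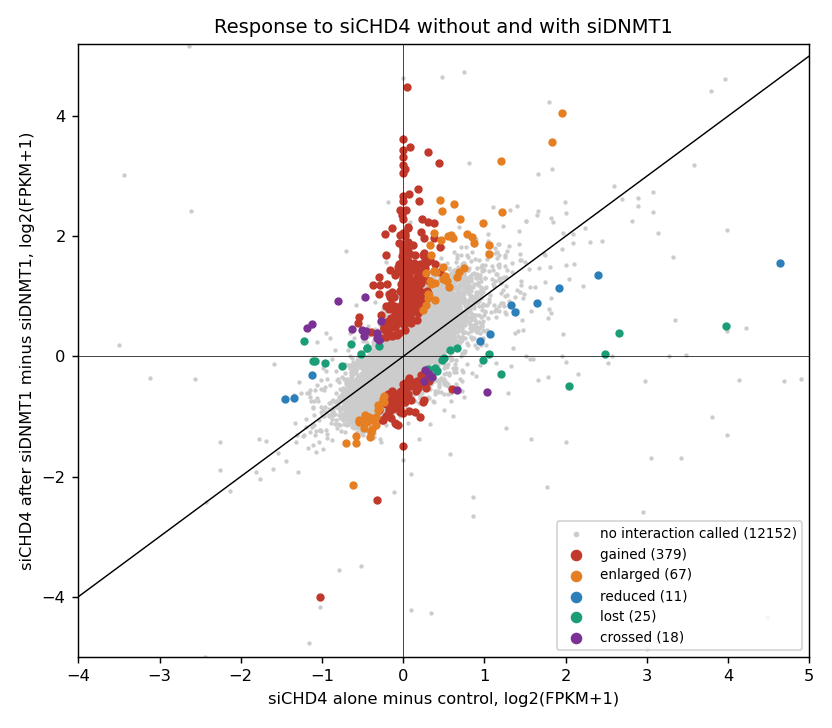
Effect of siCHD4 alone (horizontal) against its effect after siDNMT1 (vertical), both as differences of log2(FPKM + 1), for the tested genes; the diagonal marks equal effects and 20 genes lie outside the axes, 4 of them called. The 379 gained responses lie along the vertical axis, mostly above the diagonal, and the 18 crossed ones lie to the upper left and lower right of the origin.

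Germline genes were prominent among the largest positive interactions: with small RNA genes set aside, the 5 largest were those of TKTL1, VCX, MAGEB2, VCX3A and MAGEC2. TKTL1 was listed at 0, 0 and 0.0454 FPKM in the control libraries, 0, 0.0915 and 0.0463 with siCHD4 alone, 0.520, 0.286 and 0.404 with siDNMT1 alone and 29.8, 31.4 and 29.7 with both. TKTL1 encodes a transketolase-like enzyme (chromosome X, 153524148 to 153558700, plus strand, GRCh37). The 3 double knockdown libraries all stood far above the other 9, which did not reach 1 FPKM. Its interaction was 4.44 ± 0.12 (SE, adjusted p = 2.51e-09), and the level was 21.7 times that given by the 2 single effects (this ratio is of FPKM + 1 throughout). VCX was listed at 0 FPKM in all 3 control libraries, 0 in all 3 with siCHD4 alone, 0.271, 0.298 and 0.287 with siDNMT1 alone and 14.9, 15.6 and 13.7 with both, with an interaction of 3.61 ± 0.11 (SE, adjusted p = 5.73e-09). VCX belongs to a family of X-linked germ cell genes whose copies are near-identical, so the counting may have split or shared reads among VCX, VCX2 (2.67) and VCX3A (3.40).

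The MAGE genes, a family of tumour antigens of the germline, behaved alike. MAGEB2 was listed at 0 FPKM in all 3 control libraries, 0 in all 3 with siCHD4 alone, 0.293, 0.645 and 0.233 with siDNMT1 alone and 13.1, 14.0 and 14.7 with both, with an interaction of 3.44 ± 0.15 (SE, adjusted p = 1.65e-07) (chromosome X, 30233680 to 30238206, plus strand). MAGEC2 was listed at 0 FPKM in all 3 control libraries, 0 in all 3 with siCHD4 alone, 0.230, 0.190 and 0.244 with siDNMT1 alone and 9.46, 14.0 and 10.6 with both, with an interaction of 3.32 ± 0.17 (SE, adjusted p = 4.24e-07). MAGEA4 was listed at 0 FPKM in all 3 control libraries, 0 in all 3 with siCHD4 alone, 0.410, 0.451 and 0.289 with siDNMT1 alone and 10.6, 12.2 and 8.95 with both, with an interaction of 3.06 ± 0.15 (SE, adjusted p = 3.94e-07). In each of these 3 genes the control and siCHD4 libraries were all listed at 0, the siDNMT1 libraries were under 1 FPKM, and the double knockdown did not overlap any other group. MAGEB6 gave 3.11 ± 0.16 (SE, adjusted p = 4.03e-07). Of the genes with a germ cell role and a visible response to siDNMT1 alone, SOHLH1, a transcription factor of early germ cells, was the clearest. For SOHLH1, the FPKM values were 0 in all 3 controls, 0.172, 0 and 0 after siCHD4, 3.5, 2.44 and 3.45 after siDNMT1 and 24.5, 28 and 24.4 after both, and the interaction was 2.62 ± 0.17 (SE, adjusted p = 4.59e-06). Its siDNMT1 libraries lay above all control and siCHD4 libraries, and the double knockdown lay above those again.

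Over the list of 102 cancer-testis and germline genes, 52 passed the filter, and 38 of these were higher and none lower (median interaction 1.44, against -0.01 over all tested genes and 2.85% higher). Since 24 of the 52 passed 1 FPKM only in the double knockdown, this count leans on the filter. Of the 52, 47 had a positive interaction, siDNMT1 alone called 32 higher and siCHD4 alone called 7 higher. The 14 genes that were not called ran from -0.68 to 1.10. MAGE, PAGE and SSX genes have close relatives that may share reads. Without siCHD4 library 2 the count was 42 higher and 1 lower, and with a pseudocount of 0.1 it was 25 higher. The list holds genes that an earlier reading of these libraries had already shown to rise, so its count is not independent evidence.

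Of the 38 higher genes of this list 30 lie on the X chromosome (78.9%), against 32 of all 52 tested genes of the list (61.5%), which is thus mostly X-linked by its make-up. Over all higher genes that could be placed on GRCh37, 50 of 322 were X-linked (15.5%), against 378 of 11252 tested genes (3.36%) and 5 of 122 lower ones (4.1%). Outside the germline list the share among higher genes was 7.04% (20 of 284), against 3.09% of the other tested genes. The 360 higher genes include 179 that passed the filter through the double knockdown alone, so these shares lean on the filter as well. The X-linked share of the genes that it admitted this way was not counted.

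Some germline genes responded to each siRNA on its own, and there the size of the interaction depends on the scale. PAGE1 was listed at 0, 0.254 and 0.237 FPKM in the control libraries, 2.58, 2.23 and 6.75 with siCHD4 alone, 2.94, 3.73 and 5.26 with siDNMT1 alone and 76.4, 80.8 and 83.2 with both. PAGE1, a cancer-testis antigen, was raised by each depletion and was highest with both, without overlap between the double knockdown and any other group. Its interaction of 2.1 ± 0.40 (SE, adjusted p = 0.0116) fell to 0.40 (adjusted p = 0.778) with a pseudocount of 0.1, where it was no longer called. SSX1 was listed at 0 FPKM in all 3 control libraries, 0.528, 0.277 and 0.315 with siCHD4 alone, 2.17, 2.71 and 1.77 with siDNMT1 alone and 18.9, 18.8 and 17.4 with both, and its interaction of 2.15 ± 0.16 (SE, adjusted p = 1.72e-05) became 0.81 (adjusted p = 0.183). For HIST3H3, a testis histone, the FPKM values were 0 in all 3 controls, 0.253, 0.532 and 0.404 after siCHD4, 0.378, 0.832 and 0.4 after siDNMT1 and 6.90, 7.91 and 6.6 after both, and the interaction of 1.94 ± 0.18 (SE, adjusted p = 8.11e-05) became 1.30 (adjusted p = 0.129). The imprinted gene MKRN3 went from 0.74 ± 0.14 (SE, adjusted p = 0.0101) to 0.06 (adjusted p = 0.940). Over all genes the pseudocount of 0.1 left 175 higher and 82 lower, of which 174 and 79 were among the calls above.

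**Figure D2:**
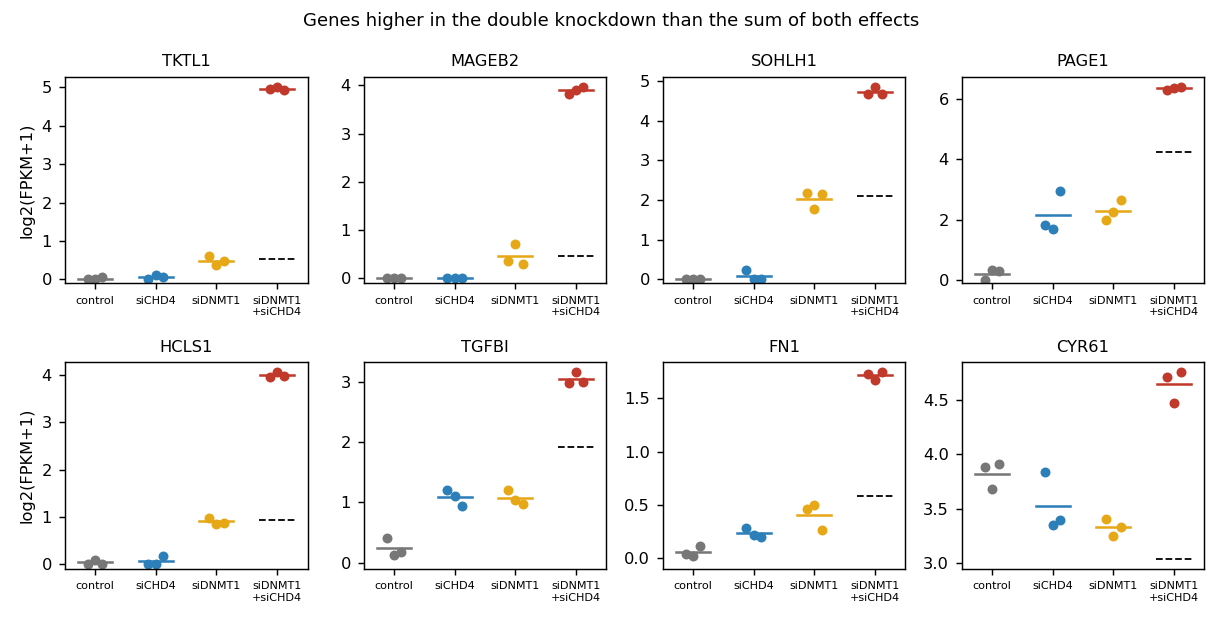
log2(FPKM + 1) in each library (points) and the group mean (solid lines) for 8 genes called higher, with the level that the 2 single effects add up to (dashed lines over the double knockdown). In all 8 panels the 3 double knockdown libraries lie above the dashed line. siDNMT1 alone already raises several of these genes, among them PAGE1, SOHLH1, TGFBI, HCLS1 and FN1, and in CYR61 the dashed line lies below the controls.

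Of 625 tested genes with a control mean under 0.5 FPKM, 248 were higher, 16 were lower and the others were not called. Genes near 0 in every group but the double knockdown can hardly be called lower, so this balance leans on the floor and the filter. HCLS1, S100A7 and S100A1 are higher ones outside the germ line. HCLS1 was listed at 0, 0.0633 and 0 FPKM in the control libraries, 0, 0 and 0.120 with siCHD4 alone, 0.958, 0.806 and 0.835 with siDNMT1 alone and 14.7, 15.8 and 15.0 with both. HCLS1 encodes a cytoskeletal adaptor of blood cells (chromosome 3, 121350246 to 121379774, minus strand), and its interaction was 3.09 ± 0.12 (SE, adjusted p = 5.81e-08). Its 3 double knockdown libraries lay above 14 FPKM and the other 9 below 1 FPKM. For S100A7, psoriasin of stratified epithelia, the FPKM values were 0 in all 3 controls, 0 in all 3 after siCHD4, 0, 0.492 and 0 after siDNMT1 and 8.59, 9.35 and 10.1 after both, with an interaction of 3.18 ± 0.20 (SE, adjusted p = 4.18e-06). S100A1 was listed at 0.280, 0.600 and 0.559 FPKM in the control libraries, 1.25, 0.940 and 1.71 with siCHD4 alone, 1.07, 1.18 and 0.565 with siDNMT1 alone and 9.50, 10.1 and 10.7 with both, with an interaction of 1.90 ± 0.22 (SE, adjusted p = 3.30e-04). S100A1, a calcium-binding protein of muscle, overlapped among the single depletions, and the double knockdown lay above all of them.

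Some markers of other cell types were also called higher, where 2.85% of all tested genes were. Of 6 tested fibroblast markers 2 were higher (median interaction 0.72), COL1A1 with 1.33 ± 0.26 (SE, adjusted p = 0.0142) and COL6A2 with 1.12 ± 0.13 (SE, adjusted p = 2.86e-04), and without siCHD4 library 2 there were 4. With a pseudocount of 0.1 there were 1 higher and 1 lower, COL6A3 (-1.57, adjusted p = 0.0202), and COL1A1 had an adjusted p of 0.0953. Of the 6, 3 passed 1 FPKM only in the double knockdown. The fibroblast list summed to 23.2 to 45.5 FPKM in the controls, 39.0 to 87.1 with siCHD4, 97.5 to 120.5 with siDNMT1 and 157.6 to 173.2 with both. Most of this sum was COL6A1, with group means of 36.2, 51.9, 98.3 and 128 FPKM in that order. Of 6 tested blood markers 2 were higher (median interaction 0.70), among them PTPRC with 0.97 ± 0.18 (SE, adjusted p = 0.00877), and their list summed to 5.63 to 7.18, 6.34 to 8.53, 9.90 to 11.6 and 12.7 to 17.3 FPKM in the same order. No blood marker was called with a pseudocount of 0.1, and 2 of the 6 passed 1 FPKM only in the double knockdown. The blood marker CORO1A had a negative interaction without a call (-0.76, adjusted p = 0.0860). Of 1 endothelial and 2 neural and glial markers tested none was called. In the double knockdown PTPRC was at 1.67, 2.30 and 1.83 FPKM. Some list members stayed at or near 0: the fibroblast genes COL3A1 and POSTN and the blood genes CD3D, CD34 and HBB were listed at 0 in all 12 libraries, and COL1A2 and PDGFRA did not pass a mean of 0.0272 FPKM in any group. Others did not. The fibroblast gene LUM had means of 0.151, 1.06, 3.45 and 10.0 FPKM in control, siCHD4, siDNMT1 and both. The blood gene HBA1 had 0.196, 0.125, 1.58 and 2.98 FPKM in that order. In RNA from whole cultures more cells with a gene on and more RNA per cell cannot be told apart.

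Genes often methylated in colorectal cancer were few among the tested ones. Of 50 listed genes 10 passed the filter, 3 were higher and 1 was lower (median interaction 0.18), against 2.85% and 1.11% of all tested genes. Of the 10, 2 (ESR1 and DKK1) passed 1 FPKM only in the double knockdown, so the count leans on the filter. Of the 8 genes with a mean of at least 1 FPKM, 1 was higher and 1 lower (median 0.03). With a pseudocount of 0.1, 1 was higher and none lower. ESR1 was listed at 0 FPKM in all 3 control libraries, 0, 0 and 0.0359 with siCHD4 alone, 0, 0 and 0.0178 with siDNMT1 alone and 1.08, 1.09 and 1.13 with both. ESR1, the oestrogen receptor, lay above 1 FPKM in the double knockdown only, with an interaction of 1.05 ± 0.11 (SE, adjusted p = 1.77e-04). For VIM, the intermediate filament vimentin, the FPKM values were 0, 0.180 and 0.168 in the controls, 0.0358, 0.113 and 0.285 after siCHD4, 2.45, 3.29 and 2.26 after siDNMT1 and 7.02, 6.25 and 6.47 after both, and the interaction of 1.02 ± 0.18 (SE, adjusted p = 0.00709) had an adjusted p of 0.339 at a pseudocount of 0.1. DKK1, a secreted Wnt antagonist, gave 0.69 ± 0.14 (SE, adjusted p = 0.0205), and 0.49 (adjusted p = 0.180) under quantile normalization. Its adjusted p was 0.131 at a pseudocount of 0.1. The lower one was THBS1, thrombospondin: 0.638, 0.538 and 0.617 FPKM in the controls, 0.753, 0.544 and 0.806 with siCHD4, 79.0, 81.2 and 79.0 with siDNMT1 and 60.8, 56.6 and 61.2 with both. siDNMT1 alone raised THBS1 in all 3 libraries, the double knockdown lay below those, and the interaction was -0.50 ± 0.11 (SE, adjusted p = 0.0294), or -0.10 (adjusted p = 0.626) under quantile normalization. Among neuronal genes 2 of 12 tested were higher (median 0.25): the ubiquitin hydrolase UCHL1 with 1.4 ± 0.16 (SE, adjusted p = 3.30e-04) and BEX2 with 1.30 ± 0.17 (SE, adjusted p = 6.96e-04). Of the 12, 3 passed 1 FPKM only in the double knockdown, BEX2 among them. With a mean of at least 1 FPKM, 1 of 8 was higher. UCHL1 was listed at 0 FPKM in all 3 control libraries, 0 in all 3 with siCHD4 alone, 3.26, 2.23 and 3.09 with siDNMT1 alone and 8.64, 8.46 and 10.3 with both. UCHL1 was thus at 0 without siDNMT1, and its double knockdown libraries lay above those with siDNMT1 alone.

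Matrix and mesenchymal genes formed a further group, with 7 of 20 tested higher and 3 lower (median interaction 0.57), against 2.85% and 1.11% of all tested genes. Of the 20, 3 passed 1 FPKM only in the double knockdown. The median was 0.34 under quantile normalization, with 8 higher and 1 lower, and 0.21 for the 17 genes with a mean of at least 1 FPKM, with 4 higher and 3 lower. There were 12 higher and 3 lower without siCHD4 library 2. CYR61 was listed at 13.7, 11.8 and 14.0 FPKM in the control libraries, 13.3, 9.23 and 9.53 with siCHD4 alone, 9.62, 8.52 and 9.08 with siDNMT1 alone and 25.2, 21.2 and 26.0 with both. CYR61, a matricellular protein induced by YAP, overlapped between siCHD4 and siDNMT1, and its 3 double knockdown libraries lay above all other 9. Its interaction was 1.61 ± 0.19 (SE, adjusted p = 3.46e-04), 3.05 times the level given by the 2 single effects. TGFBI was listed at 0.332, 0.0889 and 0.124 FPKM in the control libraries, 1.30, 1.14 and 0.930 with siCHD4 alone, 1.31, 1.05 and 0.964 with siDNMT1 alone and 6.89, 8.03 and 6.98 with both. TGFBI, a TGF-beta induced matrix protein, had an interaction of 1.13 ± 0.16 (SE, adjusted p = 0.00160), and FN1, fibronectin, one of 1.14 ± 0.13 (SE, adjusted p = 2.86e-04). Their adjusted p-values were 0.580 and 0.0823 at a pseudocount of 0.1, where 2 members of the list were called higher in all. TNC, tenascin, went the other way: 0.231, 0.206 and 0.0385 FPKM in the controls, 3.77, 3.19 and 3.12 with siCHD4, 0.441, 0.499 and 0.298 with siDNMT1 and 2.12, 2.02 and 2.17 with both. siCHD4 raised TNC less after siDNMT1 than alone, and the interaction was -0.78 ± 0.14 (SE, adjusted p = 0.0106).

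In the remaining immune and signalling lists 1 to 3 genes each were called with all 12 libraries. Over all tested genes 2.85% were higher and 1.11% lower, so single calls in such lists are near those shares. More were called without siCHD4 library 2. Without it there were 5 higher and 4 lower of the interferon list, 7 and 1 of antigen presentation, 5 and 8 of the p53 targets, 9 and 4 of the stress list, 4 and 0 of intestinal differentiation, and 5 and 2 of EGFR feedback. In that fit 1467 of all 12652 tested genes were higher and 1950 lower (27% together). With a pseudocount of 0.1 antigen presentation and EGFR feedback had none called. The interferon list and the p53 targets then had 1 lower each, and the stress list and intestinal differentiation 1 higher each. With all libraries, of 43 interferon-stimulated genes 1 was higher and 2 were lower (median 0.08, or -0.01 under quantile normalization). IFI27, an interferon-induced mitochondrial protein, was at 18.0, 23.5 and 18.9 FPKM in the double knockdown and under 2.3 FPKM in the other 9 libraries, with an interaction of 2.76 ± 0.47 (SE, adjusted p = 0.00574) that had an adjusted p of 0.227 at a pseudocount of 0.1. LAP3, an aminopeptidase, had -0.51 ± 0.12 (SE, adjusted p = 0.0350). CD74, the invariant chain of class II antigen presentation, was the 1 called gene of 20 in its list (median 0.20), and its values were 0, 0.105 and 0.393 FPKM in the controls, 0.0629, 0.264 and 0 with siCHD4, 0.920, 0.929 and 0.894 with siDNMT1 and 3.94, 4.72 and 4.41 with both. Its double knockdown libraries lay above all others, with an interaction of 1.55 ± 0.19 (SE, adjusted p = 4.65e-04). At a pseudocount of 0.1 the adjusted p was 0.131 for CD74 and 0.132 for EDA2R, a p53 target described next. The p53 targets gave 1 higher and 2 lower of 43 (median -0.19): EDA2R, a TNF receptor family member, with 1.04 ± 0.12 (SE, adjusted p = 3.09e-04), DDB2, a DNA damage sensor, with -0.72 ± 0.17 (SE, adjusted p = 0.0350), and SESN1, a stress-responsive regulator of TOR signalling, with -0.66 ± 0.14 (SE, adjusted p = 0.0206). Of 29 genes of the endoplasmic reticulum and amino acid stress list 2 were higher (median 0.23), the chaperone HSPA5 with 0.79 ± 0.18 (SE, adjusted p = 0.0290) and the transcription factor ATF5 with 0.67 ± 0.15 (SE, adjusted p = 0.0349). HNF4A, a transcription factor of the gut epithelium, was the 1 higher gene of 15 in its list (median 0.20): 13.0, 12.5 and 9.71 FPKM in the controls, 13.7, 11.0 and 13.9 with siCHD4, 7.68, 6.99 and 7.97 with siDNMT1 and 15.4, 15.2 and 16.5 with both. It was low after siDNMT1 alone and its double knockdown libraries lay above every other library, with an interaction of 0.84 ± 0.17 (SE, adjusted p = 0.0153). DUSP5, a phosphatase induced by ERK signalling, was the 1 higher gene of 27 in the EGFR feedback list (median 0.33), with 0.75 ± 0.18 (SE, adjusted p = 0.0417).

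In 18 genes the direction of the siCHD4 effect turned. WNT16 was listed at 51.6, 50.9 and 45.3 FPKM in the control libraries, 20.0, 18.5 and 29.0 with siCHD4 alone, 38.0, 36.6 and 34.2 with siDNMT1 alone and 51.5, 57.4 and 50.0 with both. WNT16 encodes a Wnt ligand (chromosome 7, 120965421 to 120981158, plus strand). siCHD4 alone lowered it in all 3 libraries, whereas after siDNMT1 it raised WNT16 in all 3 (-1.12 alone and 0.53 after siDNMT1), and the interaction was 1.65 ± 0.20 (SE, adjusted p = 4.23e-04), or 1.84 without siCHD4 library 2. KRT16 was listed at 2.65, 2.30 and 2.50 FPKM in the control libraries, 0.594, 0.576 and 0.437 with siCHD4 alone, 2.52, 2.63 and 2.67 with siDNMT1 alone and 3.47, 4.28 and 4.34 with both. KRT16, a keratin of activated epidermis with near-identical copies that could share its reads, behaved the same way (-1.18 alone and 0.48 after siDNMT1), with an interaction of 1.66 ± 0.13 (SE, adjusted p = 3.18e-05). The troponin gene TNNC1 gave 1.72 ± 0.27 (SE, adjusted p = 0.00306) and PTPRS, a receptor phosphatase, 1.46 ± 0.19 (SE, adjusted p = 7.05e-04). LHX4, a homeodomain factor, gave 0.95 ± 0.16 (SE, adjusted p = 0.00575), and HOXC13 0.87 ± 0.19 (SE, adjusted p = 0.0294), the 1 called gene of 29 tested HOX genes (median 0.34, with 26 of 29 positive, and 10 higher without siCHD4 library 2). For each of these 6 genes siCHD4 lowered the level alone and raised it after siDNMT1. The HOX count stands beside 2.85% higher over all tested genes.

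The opposite turn was rarer. IFITM1 was listed at 1.91, 2.50 and 2.97 FPKM in the control libraries, 3.93, 6.69 and 8.21 with siCHD4 alone, 54.0, 52.8 and 53.5 with siDNMT1 alone and 37.5, 39.1 and 29.9 with both. IFITM1, an interferon-induced antiviral membrane protein with near-identical relatives (chromosome 11, 310041 to 315272, plus strand), was raised by siCHD4 alone and far more by siDNMT1 alone, and siCHD4 after siDNMT1 lowered it (1.04 alone and -0.59 after siDNMT1). The interaction was -1.62 ± 0.28 (SE, adjusted p = 0.00673), and the double knockdown held 0.324 of the level given by the 2 single effects. MGME1, a mitochondrial nuclease, turned in the same sense with -0.66 ± 0.11 (SE, adjusted p = 0.00495).

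**Figure D3:**
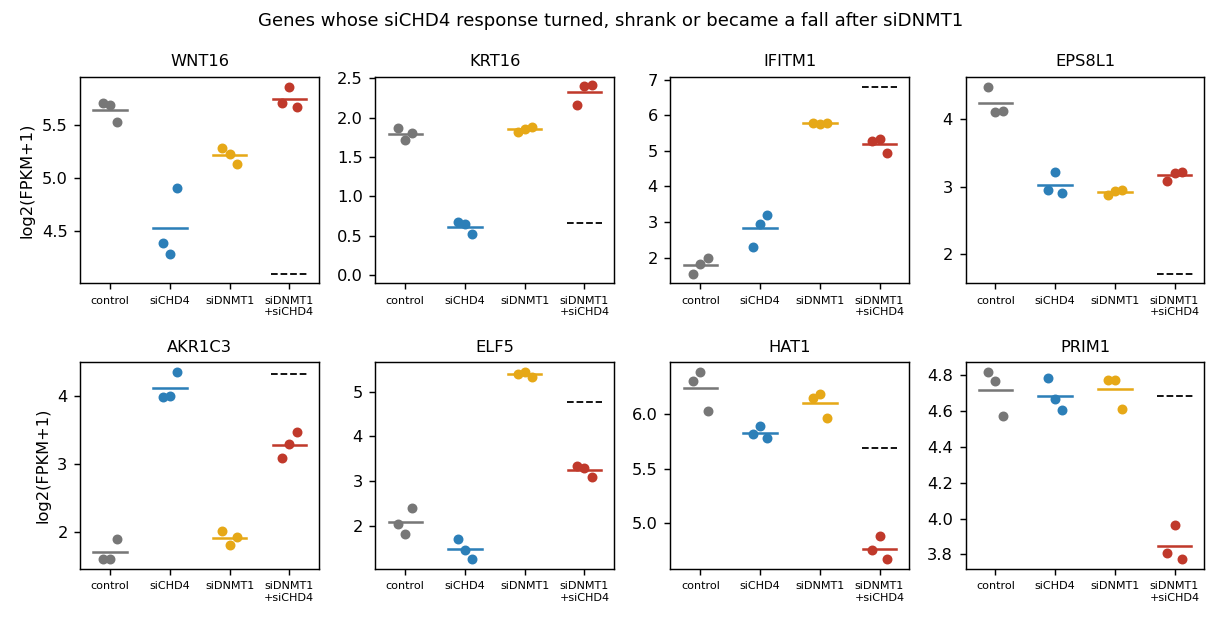
log2(FPKM + 1) in each library (points) and group means (solid lines) for 8 genes of the crossed, lost, reduced and lower classes, with the sum of the 2 single effects as a dashed line. In WNT16, KRT16 and EPS8L1 the double knockdown lies above the dashed line, and in the other 5 it lies below; vertical axes do not start at 0.

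Other genes lost or kept less of their siCHD4 response. EPS8L1 was listed at 21.4, 16.3 and 16.5 FPKM in the control libraries, 6.75, 8.29 and 6.49 with siCHD4 alone, 6.32, 6.62 and 6.74 with siDNMT1 alone and 7.45, 8.21 and 8.29 with both. EPS8L1 encodes an actin-regulating adaptor of epithelia (chromosome 19, 55583388 to 55599291, plus strand), and it was low after either siRNA. All 9 treated libraries lay below the controls, adding siCHD4 to siDNMT1 gave no called change (-1.22 alone and 0.25 after siDNMT1), and the interaction was 1.47 ± 0.16 (SE, adjusted p = 2.75e-04). NCEH1, a lipid hydrolase, fell less after siDNMT1 (-1.12 alone and -0.32 after siDNMT1, interaction 0.80 ± 0.10 (SE, adjusted p = 6.56e-04)). FAM174A gave 0.59 ± 0.11 (SE, adjusted p = 0.0125). PTGDS, a prostaglandin synthase, gave 0.85 ± 0.16 (SE, adjusted p = 0.0122), with an adjusted p of 0.0699 at a pseudocount of 0.1. AKR1C3 was listed at 2.07, 2.05 and 2.76 FPKM in the control libraries, 14.8, 14.9 and 19.4 with siCHD4 alone, 3.04, 2.53 and 2.82 with siDNMT1 alone and 7.49, 8.80 and 10.1 with both. AKR1C3, an aldo-keto reductase of steroid and prostaglandin metabolism, was raised by siCHD4 in both backgrounds without overlap of the groups, by less after siDNMT1 (2.40 alone and 1.36 after siDNMT1, interaction -1.04 ± 0.19 (SE, adjusted p = 0.0104)). UBE3D, a ubiquitin ligase, was raised by siCHD4 alone and not by siCHD4 after siDNMT1 (0.98 alone and -0.06 after siDNMT1, interaction -1.04 ± 0.16 (SE, adjusted p = 0.00230)). The read-through gene ISY1-RAB43, which shares exons with its neighbours so that its value is uncertain, gave -0.75 ± 0.13 (SE, adjusted p = 0.00544).

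The histone genes had a median of -0.89, yet few passed the test: 6 of 62 were lower and 3 higher. Under quantile normalization 22 were lower and 2 higher, and the median was -0.55. Over all tested genes the shares in the main fit were 1.11% lower and 2.85% higher. HIST1H2BG was listed at 0, 0 and 0.456 FPKM in the control libraries, 15.2, 25.5 and 12.1 with siCHD4 alone, 134, 109.8 and 129.6 with siDNMT1 alone and 171, 201 and 162 with both. Each depletion raised HIST1H2BG, siDNMT1 the more, and siCHD4 added no called rise after siDNMT1 (interaction -3.46 ± 0.33 (SE, adjusted p = 9.46e-05)). HIST1H2AE gave -2.27 ± 0.25 (SE, adjusted p = 2.30e-04). On the linear FPKM scale both genes gained more from siCHD4 after siDNMT1 than alone, by 36.0 and 20.6 FPKM, so their sign depends on the scale. HIST1H2BI gave -2.44 ± 0.33 (SE, adjusted p = 0.00108) and HIST1H3J -2.53 ± 0.50 (SE, adjusted p = 0.0163). The linker histones HIST1H1T, a testis form (3.14, 2.24 and 4.8 FPKM in the controls, 113, 153 and 68.1 with siCHD4, 37.3, 25.7 and 28 with siDNMT1 and 88.8, 95.0 and 85.4 with both), and HIST1H1D gave -3.09 ± 0.39 (SE, adjusted p = 5.84e-04) and -1.07 ± 0.19 (SE, adjusted p = 0.00821). HIST1H1D had an adjusted p of 0.0652 at a pseudocount of 0.1. Histone genes have near-identical copies, so single members are uncertain, and without siCHD4 library 2 the count of lower histone genes was 50.

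Among the named genes that were lower than the 2 effects predict, one pattern was a rise with siDNMT1 alone that was smaller in the double knockdown. APOBEC3G was listed at 0.133, 0.213 and 0.662 FPKM in the control libraries, 0.0424, 0.0445 and 0.0675 with siCHD4 alone, 7.21, 7.31 and 8.37 with siDNMT1 alone and 0.669, 0.727 and 0.552 with both. APOBEC3G, an antiviral cytidine deaminase (chromosome 22, 39473072 to 39483748, plus strand), rose with siDNMT1 alone, and with both depletions it stayed under 1 FPKM. Its interaction was -2.06 ± 0.19 (SE, adjusted p = 8.11e-05), and it had an adjusted p of 0.0688 at a pseudocount of 0.1. Its relative APOBEC3C gave -1.07 ± 0.25 (SE, adjusted p = 0.0349), so 2 of 4 tested APOBEC3 genes were lower (median -0.73), with reads that these related genes may share. None of the 4 was called at a pseudocount of 0.1, and over all tested genes 1.11% were lower in the main fit. ELF5 was listed at 3.15, 2.57 and 4.33 FPKM in the control libraries, 2.26, 1.78 and 1.4 with siCHD4 alone, 41.0, 42.4 and 38.9 with siDNMT1 alone and 9.18, 8.85 and 7.49 with both. ELF5 (chromosome 11, 34500338 to 34546740, minus strand) rose with siDNMT1 in all 3 libraries and the double knockdown lay between those and the controls, with an interaction of -1.52 ± 0.21 (SE, adjusted p = 0.00140). For MT1A, a metallothionein with near-identical relatives, the FPKM values were 0 in all 3 controls, 0 in all 3 after siCHD4, 10.4, 7.26 and 8.73 after siDNMT1 and 2.64, 2.87 and 1.92 after both, with -1.49 ± 0.19 (SE, adjusted p = 5.56e-04). SAP25, a subunit of the SIN3 corepressor, was at 46.3, 45.9 and 48.0 FPKM with siDNMT1 and 21.9, 25.9 and 20.8 with both, with -1.22 ± 0.20 (SE, adjusted p = 0.00475). TRIM7, a ubiquitin ligase of glycogen metabolism, gave -1.01 ± 0.20 (SE, adjusted p = 0.0147), and APCDD1, a Wnt inhibitor, -0.72 ± 0.15 (SE, adjusted p = 0.0217). APCDD1 had an adjusted p of 0.200 at a pseudocount of 0.1. The other lower gene of the Wnt and stem cell list (2 of 30, median 0.28) was ETS2, an ETS-family transcription factor, with -0.46 ± 0.11 (SE, adjusted p = 0.0412). The balance of calls in that list, 0 higher and 2 lower, was 9 higher and 3 lower without siCHD4 library 2 and 3 higher and 1 lower under quantile normalization. None of that list was called with a pseudocount of 0.1.

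Other lower genes were well expressed in all groups, and siCHD4 lowered them more after siDNMT1 than alone. HAT1 was listed at 78.3, 82.9 and 64.2 FPKM in the control libraries, 55.6, 58.3 and 54.0 with siCHD4 alone, 70.2, 71.8 and 61.7 with siDNMT1 alone and 25.9, 28.4 and 24.4 with both. HAT1 acetylates newly made histone H4 (chromosome 2, 172778958 to 172848600, plus strand), and its 3 double knockdown libraries lay below all other 9. Its interaction was -0.93 ± 0.15 (SE, adjusted p = 0.00365), 0.525 of the level given by the 2 single effects. The mitochondrial ribosome gene MRPL32 gave -0.87 ± 0.15 (SE, adjusted p = 0.00788), ADK, adenosine kinase, -0.84 ± 0.14 (SE, adjusted p = 0.00424), and CAP1, an actin-cycling protein, -0.80 ± 0.12 (SE, adjusted p = 0.00319). ACAT2, an acetyl-CoA thiolase, was the 1 lower gene of 30 of the cholesterol list (median -0.04), with -0.74 ± 0.16 (SE, adjusted p = 0.0260). Over all tested genes 1.11% were lower.

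Of 59 tested DNA replication genes 8 were lower and none higher, 56 of 59 were negative, and the median was -0.41, where 1.11% of all tested genes were lower. Under quantile normalization 18 were lower and none higher, and 3 were lower with a mean of at least 1 FPKM. PRIM1 was listed at 27.2, 26.2 and 22.8 FPKM in the control libraries, 26.5, 24.4 and 23.3 with siCHD4 alone, 26.3, 26.4 and 23.4 with siDNMT1 alone and 13.0, 14.6 and 12.7 with both. PRIM1, the primase that starts each new DNA strand, did not differ between control, siCHD4 and siDNMT1 beyond their spread, and the double knockdown lay below all of them, with an interaction of -0.84 ± 0.13 (SE, adjusted p = 0.00323). CDC7, a kinase that fires replication origins, gave -0.66 ± 0.12 (SE, adjusted p = 0.0103), and RRM1, a ribonucleotide reductase subunit, gave -0.59 ± 0.13 (SE, adjusted p = 0.0297) with an adjusted p of 0.0538 under the replicate block. The list had 43 lower and none higher without siCHD4 library 2.

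No gene was called among 50 of ribosome biogenesis (median -0.27), 29 of hypoxia and glycolysis (-0.13), 24 of polycomb and H3K9 methylation (0.01) and 16 of NF-kB signalling (0.04), of which 3, 7, 4 and 4 had an unadjusted p below 0.05. Without siCHD4 library 2 the ribosome biogenesis list had 34 lower (median -0.51), hypoxia and glycolysis 4 higher and 11 lower, polycomb and H3K9 methylation 2 and 2, and NF-kB signalling 2 and 1. In that fit 27% of all tested genes were called. Under quantile normalization the median of hypoxia and glycolysis was 0.18, with 2 called higher, and that of NF-kB signalling -0.02. Mitotic genes had 1 lower of 46 (median -0.34), the checkpoint kinase BUB1 with -0.52 ± 0.12 (SE, adjusted p = 0.0294), where 1.11% of all tested genes were lower. Ribosomal protein genes had 1 lower of 78, RPL22 with -0.57 ± 0.12 (SE, adjusted p = 0.0175). All 78 ribosomal protein genes had a negative interaction (median -0.49), but under quantile normalization 34 were positive and the median was -0.01, so the direction of this list depends on the scaling. There were 73 lower ribosomal protein genes and 21 lower mitotic genes without siCHD4 library 2. The interaction also moved with level and gene length. In 4 equal bins from the lowest to the highest mean FPKM its median was 0.13, 0.03, -0.03 and -0.17, and in 4 bins from the shortest to the longest exon length it was -0.11, -0.05, 0.02 and 0.06. With the trend on length removed 408 genes were higher and 164 lower; the part of level in these results was not tested.

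Calls with an adjusted p near the threshold did not all hold with single libraries left out. Of the 12 fits without 1 library each, ETS2 and LAP3 were called in 1, DDB2 in 2, APOBEC3C, RRM1, ACAT2 and THBS1 in 3, HSPA5, ATF5 and DUSP5 in 4, BUB1 and HOXC13 in 5, SESN1 and APCDD1 in 6, RPL22 in 7, DKK1 in 8 and HNF4A in 11 (not without double knockdown library 2). The other called genes named here were called in all 12. Without siCHD4 library 2 each of these 17 genes was called, so the libraries whose absence ended a call were others.

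**Figure D4:**
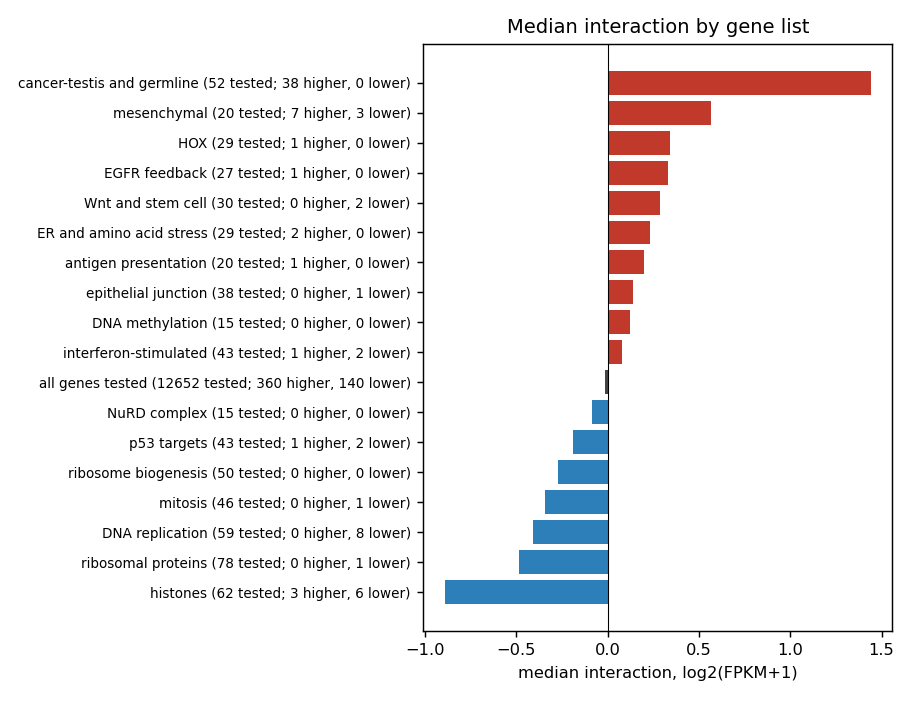
Median interaction on the log2(FPKM + 1) scale for 17 gene lists and all tested genes, with the number tested and called in each label; bars start at 0. Cancer-testis and germline genes have the highest median (1.44) and histones the lowest (-0.89), against -0.01 for all 12652 genes.

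The decitabine libraries give the siCHD4 effect in a further background. The siCHD4 effect after siDNMT1 minus that with decitabine was higher in 533 genes (4.21%) and lower in 546 (4.32%) in a fit over all 18 libraries. This difference shares the double knockdown and siDNMT1 libraries with the interaction, so each gene's own values are given side by side. CHD4 itself was at 66.8, 80.2 and 81.5 FPKM with decitabine and control siRNA and at 55.6, 56.5 and 52.6 with decitabine and siCHD4. These groups did not overlap, but the siCHD4 effect on CHD4 was not called with decitabine (-0.46, adjusted p = 0.0748), against -1.24 after siDNMT1 (difference -0.77, adjusted p = 0.0283). The 2 backgrounds are therefore compared at unequal CHD4 depletion, and background, depletion and schedule cannot be told apart. For TKTL1 the siCHD4 effect was 0.04 alone, 4.48 after siDNMT1 and 2.92 with decitabine, and for MAGEC2 it was 0.00, 3.32 and 1.54 in that order. Both genes were higher with siCHD4 in both backgrounds, by more after siDNMT1, where CHD4 was also lower (difference 1.56, adjusted p = 0.00937, and 1.78, adjusted p = 1.77e-04).

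For other genes siCHD4 gave no called change with decitabine, where CHD4 was depleted less. S100A1 had effects of 0.63, 2.53 and 0.59, and CD74 of -0.07, 1.48 and 0.23. The aldose reductase gene AKR1B1 (interaction 1.12 ± 0.18 (SE, adjusted p = 0.00376)) had 0.13, 1.25 and 0.15. HAT1, ADK and MRPL32 had -0.33, -0.17 and -0.31 with decitabine against -1.34, -1.22 and -1.26 after siDNMT1. MT1A and APOBEC3G had called effects in both backgrounds. MT1A was lowered after siDNMT1 (-1.49) and raised with decitabine (1.39, difference -2.88, adjusted p = 0.00547). Its decitabine groups overlapped, at 0, 0.647 and 3.58 FPKM with control siRNA and 5.58, 3.81 and 3.31 with siCHD4. The decitabine controls were uneven in other genes too, with TKTL1 at 2.81, 0.742 and 0.646 FPKM and APOBEC3G at 17.5, 4.84 and 5.36. How far decitabine control library 0 shifts these effects was not tested. APOBEC3G fell in both backgrounds, by 2.39 after siDNMT1 and by 2.01 with decitabine on the log2 scale, and the difference was not called (-0.37, adjusted p = 0.578).

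**Figure D5:**
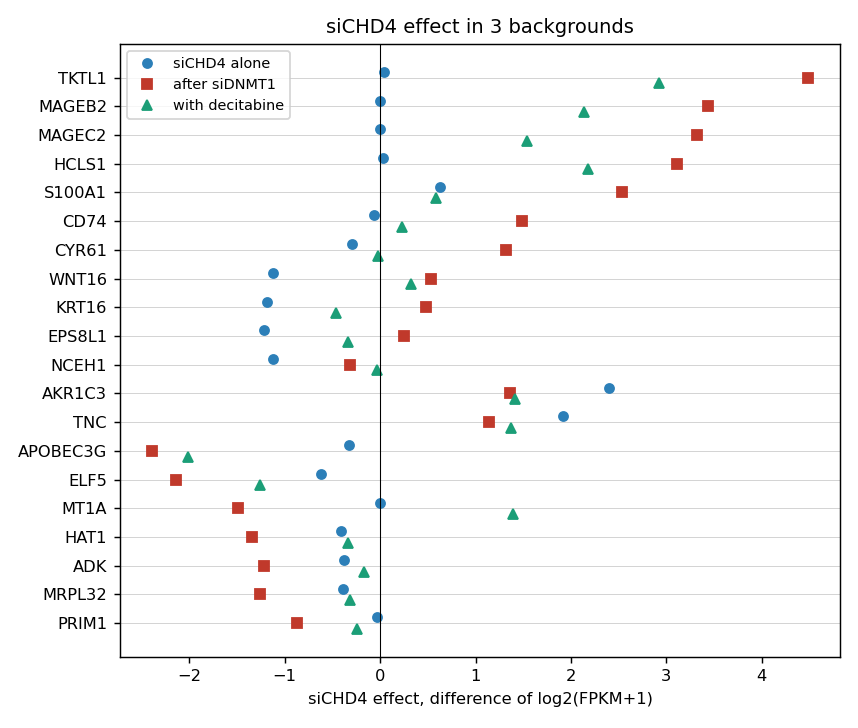
siCHD4 effect, as the difference of mean log2(FPKM + 1) to the matched control siRNA group, alone (circles), after siDNMT1 (squares) and with decitabine (triangles) for 20 genes. For TKTL1, MAGEB2, MAGEC2 and HCLS1 the decitabine value lies between the other 2; for S100A1, HAT1, ADK and MRPL32 it lies just beyond the value of siCHD4 alone, and for MT1A the 2 combinations have opposite signs.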

How the data were processed

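The deposited table holds FPKM values that the authors computed, with a column for each library of SW48 cells. TopHat2 2.0.9, Cuffdiff 2.1.1 and the build hg19 are named in the submitters' processing notes. How genes were annotated and libraries scaled to each other is not given in the sources used here. Read totals were not used. Of 23599 entries, 28 with a date number in place of a gene name were left out.

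The scale was log2(FPKM + 1), on which changes of low genes look smaller than they are. Genes that reached 1 FPKM in 3 or more of the 12 libraries were kept. A model with 1 mean per group (8 residual degrees of freedom) was fitted in limma 3.58.1 under R 4.3.3 with a variance trend, and two-sided p-values received Benjamini-Hochberg adjustment across the 12652 genes. The difference between the siDNMT1 and decitabine backgrounds was taken from the same model over 18 libraries. The script was tested on simulated data. Library numbers were not taken to pair libraries, since residuals of same-numbered libraries correlated between -0.35 and 0.14.

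The experiment, its gene lists and classes were chosen with earlier results of these data known. The genes named are CHD4, DNMT1, the largest interactions per direction and class that were called with each library left out and kept their direction at a pseudocount of 0.1, and up to 4 members of a list with the smallest p. A few genes that this rule picks are not reported here. Markers listed at 0 or near 0, and the markers LUM and HBA1, were named after their values were seen. Genomic positions come from the GENCODE annotation on GRCh37. Alternatives covered the pseudocount, filter, scaling, model, and each library left out, and 1 more (removing a trend on gene length) was chosen after seeing the data.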

Additional observations from a re-analysis of the deposited data

Results flagged for a closer look

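The siCHD4 effect differed between backgrounds in the tests reported above: 360 genes were higher and 140 lower after siDNMT1 than alone, and 533 were higher and 546 lower after siDNMT1 than with decitabine. Among the named genes the effect had opposite directions alone and after siDNMT1 for WNT16 (log2 interaction 1.65), KRT16 (1.66), TNNC1 (1.72), PTPRS (1.46), LHX4 (0.95) and HOXC13 (0.87), which fell alone and rose after siDNMT1, and for IFITM1 (-1.62) and MGME1 (-0.66), which did the reverse. Each group has 3 libraries, so single libraries were not tested as outliers.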

How the results depend on the processing

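The direction of every named interaction with a call was kept under each alternative, except that HIST1H2BG (36.0 FPKM) and HIST1H2AE (20.6 FPKM) were positive on the linear scale; all 360 higher genes and 137 of 140 lower ones kept their sign there. Over the named genes and their alternatives 1903 values were counted as unchanged, 207 lost the call and 9 gained one. Unchanged means the same direction and side of the threshold. For genes without a call in the main fit a change of sign was also counted as unchanged. Values on the linear scale had no test and were judged by direction alone. The counts of higher and lower genes were 175 and 82 with a pseudocount of 0.1, 859 and 213 with no filter, 98 and 64 with a filter at 5 FPKM, 157 and 82 with a mean of at least 1 FPKM, 407 and 344 under quantile normalization and 2719 and 3026 with library weights. The replicate block gave 303 and 83, with 5 reduced genes. The counts of gained genes were 185, 908, 105 and 166 under the pseudocount, no filter, the 5 FPKM filter and the mean filter, and 3296 with weights. Enlarged genes numbered 27, 29, 34, 117 and 1108 under the pseudocount, the 5 FPKM filter, the mean filter, quantile normalization and weights. Under the 5 FPKM filter 6 were reduced, 14 lost and 8 crossed, with weights 185, 636 and 416, and under quantile normalization 41 were lost. The cause of these shifts was not tested, apart from the fewer or more genes that a filter leaves.

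With 1 library left out the counts ran from 261 to 1467 higher and from 52 to 1950 lower, both maxima without siCHD4 library 2, from 255 to 2436 gained, 18 to 413 enlarged, 5 to 57 reduced, 12 to 266 lost and 6 to 153 crossed. The lower count fell to between 52 and 71 without control library 0 or 1, siDNMT1 library 0 or 1, siCHD4 library 0, or double knockdown library 0 or 2, and to 87 without siDNMT1 library 2. Without both control library 2 and siCHD4 library 2 there were 1983 higher and 2203 lower, with 2635 gained, 410 enlarged, 171 reduced, 562 lost and 314 crossed. In each of the 12 such fits 236 of the higher and 43 of the lower genes were called. Read totals were not used, so low values carry no counting interval.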

Other observations

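Small RNA genes were set apart because listed values of 0 and high values alternate by group. Of 192 tested small RNA genes 3 were higher and 2 lower, and 69 held both a listed 0 and a value over 100 FPKM. SNORD33, a small nucleolar RNA, was at 2986, 3196 and 5982 FPKM in the controls and listed at 0 in the other 9 libraries, SNORA41 was listed at 0 only in the double knockdown among these 12 libraries, and MIR941-2 and SNAR-I were above 0 only there. No fold is given for these genes.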
